A study of Homo sapiens with 6 samples.

Results

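The genes encoding integrins and laminin chains were examined in HCCC9810, a human cholangiocarcinoma (CCA) cell line with a genotype labelled wild type, after 24 h with 20 μM isolinderalactone (ILL), a sesquiterpene lactone, or with the vehicle DMSO (control). Each group had 3 RNA-seq libraries, so every difference below sets 3 ILL libraries against 3 control libraries of 1 cell line at 1 dose and 1 time. The members were taken by gene symbol, as every integrin α gene, every integrin β gene and every laminin α, β and γ chain gene of the count table. This gave 38 of the 19470 genes, of which 26 encode integrin subunits (18 α and 8 β) and 12 encode laminin chains. Counts were high enough for a test in 28 of the 38.

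Integrins are cell surface receptors made of 1 α and 1 β subunit. They bind proteins of the extracellular matrix outside the cell and link them, through adaptor proteins, to the cytoskeleton inside it. Laminins are the main cell-binding proteins of basement membranes, and each laminin is a trimer of 1 α, 1 β and 1 γ chain. Epithelial cells such as those lining bile ducts hold on to laminin through integrins of the α3β1 and α6β4 type, and the latter sits in hemidesmosomes.

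A gene was called a differentially expressed gene (DEG) where edgeR (quasi-likelihood test, Benjamini-Hochberg adjustment) gave an adjusted p under 0.05 together with a change of more than 2-fold in either direction. By this rule 6 members were higher with ILL, namely ITGA2, ITGB1, ITGB3, ITGB6, ITGB7 and LAMB2, and 2 were lower, namely ITGAE and LAMB4. These are 21.4% and 7.14% of the 28 tested members, against a background of 12.5% (higher) and 11.4% (lower) among all 13066 tested genes. Of these calls, LAMB4 reached the filter on low counts only through the control libraries, and ITGB3 through 3 ILL libraries and 1 control library. With at least 10 counts required in every library, 5 members were called higher and 1 lower. Without the fold cutoff, 15 members (53.6%) were higher and 5 (17.9%) were lower at an adjusted p under 0.05, against 36.2% and 36.9% of all tested genes. The other 8 did not pass the test. The groups did not overlap in 18 of the 28 members (64.3%), below the 75.4% of all tested genes. The median log2 fold change of the 28 members was 0.41, and that of all tested genes was -0.0012. Among the integrins, 11 of 17 tested genes passed the test as higher and 2 as lower, with a median of 0.50. Among the laminin chains, 4 of 11 passed as higher and 3 as lower, with a median of 0.12.

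**Figure D1:**
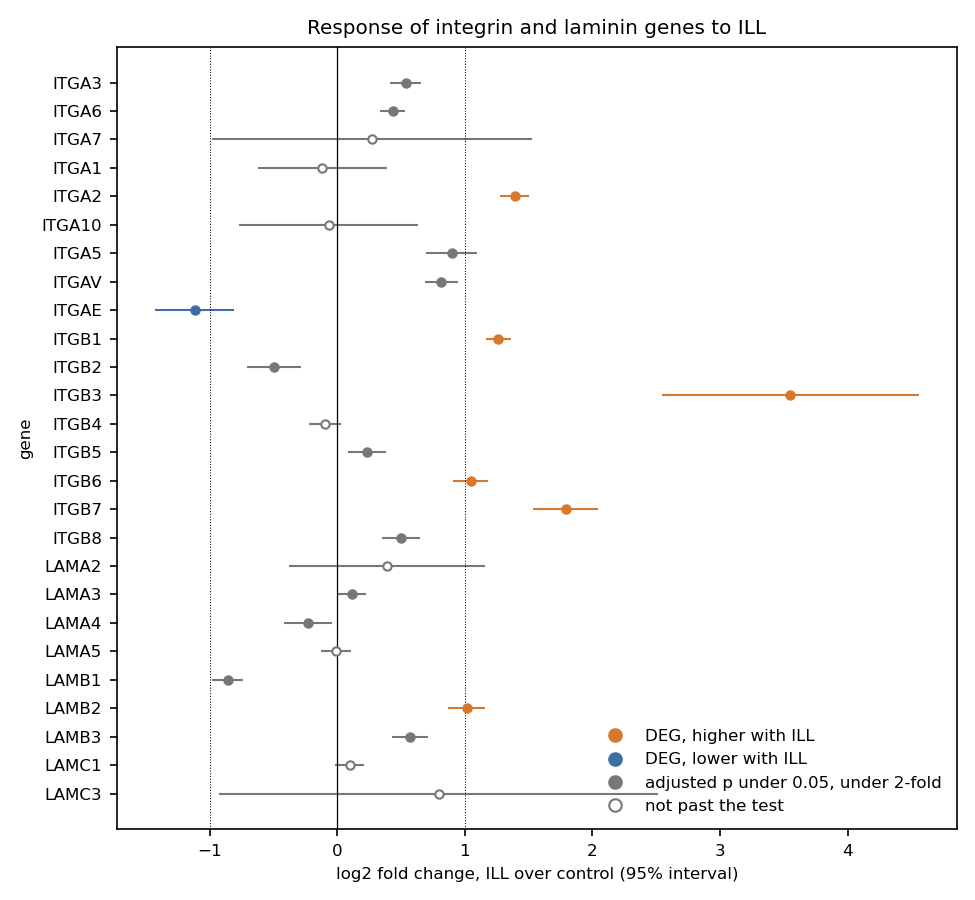
The log2 fold change of ILL over control (x axis) is plotted for the integrin and laminin genes described here (y axis), with points for the edgeR estimate and bars for its 95% interval, and dotted lines at 2-fold. ITGB3 lies farthest to the right with a wide interval, ITGB7, ITGA2 and ITGB1 lie beyond the dotted line with narrow ones, and LAMB1 and ITGAE lie to the left (LAMB4, with no count in any ILL library, is left out).

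Total counts ranged from 34282764 to 37758569 per library, and the members together took 0.920% to 1.04% of the counts in the control libraries and 1.32% to 1.42% in the ILL libraries. Levels of 1 gene are given below as CPM (counts scaled to library size with TMM factors), and levels of different genes are compared only as FPKM, which divides by gene length. FPKM holds no TMM factor. These factors were 1.019 to 1.029 in control and 0.970 to 0.982 in ILL libraries, so ILL levels relative to control are lower in FPKM than in CPM. The labelled cell type was checked by 7 biliary epithelial markers (KRT7, KRT8, KRT18, KRT19, EPCAM, SOX9 and CDH1), whose summed level was 9050 to 9292 CPM in control and 9531 to 10120 CPM in ILL libraries. The sum hides opposing changes. All 7 passed the test (adjusted p under 0.05), 3 as higher (CDH1 with a log2 fold change of 2.07, KRT7 of 0.64 and EPCAM of 0.24) and 4 as lower (KRT18 of -0.82, SOX9 of -0.56, KRT19 of -0.18 and KRT8 of -0.16), with a median of -0.16. In a bulk library, fewer cells of a type and less RNA per cell cannot be told apart. No label says that the 3 libraries of a group came from separate cultures, so the p-values measure the spread between these libraries, which may be technical.

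The upstream sequences of the DEGs that were higher with ILL and reached at least 10 FPKM are shown first, as these 4 genes are the DEGs of highest level among the members. Each is the stretch upstream of a RefSeq transcription start (GRCh38.p14), ended before the first base that GENCODE 29 puts in an exon of the gene, printed 5′ to 3′ on the strand of the gene. Capitals mark matches to 6 motifs searched on both strands (TGANTCA, the AP-1 form; GGANTTTCC, an NF-κB form; TGACNNNGC, an antioxidant response element; TGATGNAA, an ATF4 form; CATTCC, a TEAD form; and the CArG box of serum response factor).
ITGA2 (chr5:52989102-52989325, plus strand): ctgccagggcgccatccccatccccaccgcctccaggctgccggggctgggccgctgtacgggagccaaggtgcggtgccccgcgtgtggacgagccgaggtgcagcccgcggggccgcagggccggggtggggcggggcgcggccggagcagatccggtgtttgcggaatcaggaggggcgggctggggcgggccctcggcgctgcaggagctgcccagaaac
ITGB1 (chr10:32958233-32958480, minus strand): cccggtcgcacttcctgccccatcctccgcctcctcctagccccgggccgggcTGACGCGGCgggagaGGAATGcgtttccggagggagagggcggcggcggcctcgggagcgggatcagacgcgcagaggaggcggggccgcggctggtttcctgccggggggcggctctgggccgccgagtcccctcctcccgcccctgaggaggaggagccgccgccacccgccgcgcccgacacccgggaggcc
ITGB6 (chr2:160200314-160200522, minus strand): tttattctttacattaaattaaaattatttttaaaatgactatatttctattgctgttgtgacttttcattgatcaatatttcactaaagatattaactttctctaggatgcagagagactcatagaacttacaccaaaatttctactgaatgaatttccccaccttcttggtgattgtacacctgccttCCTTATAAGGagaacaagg
LAMB2 (chr3:49133119-49133300, minus strand): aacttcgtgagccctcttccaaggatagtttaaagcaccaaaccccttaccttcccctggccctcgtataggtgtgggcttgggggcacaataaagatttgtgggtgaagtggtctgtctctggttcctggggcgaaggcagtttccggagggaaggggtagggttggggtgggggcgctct
The ITGA2 and ITGB1 stretches were 77.2% and 78.2% G or C and each held 3 matches to GGGCGG, the GC box (not in capitals). The LAMB2 stretch was 56.6% G or C, and the ITGB6 stretch was 30.1%, and neither held a GC box. These printed stretches had 182 (LAMB2) and 209 (ITGB6) of the 250 bases of a window. With all 250 bases searched, LAMB2 was among the members with a GC box, and ITGB6 was not. The median over the 250 bases upstream of all starts was 58.0%. ITGB1 held TGACNNNGC between 197 and 189 bases upstream of its start, and CATTCC on the opposite strand between 182 and 177 bases upstream. ITGB6 held a CArG box between 60 and 51 bases upstream, a palindrome that reads alike on both strands. No capitals appear in the ITGA2 and LAMB2 stretches. Windows of 250 bases were found for 26 of the 38 members (33 windows). Of all 35116 windows, 10.9% held TGACNNNGC, 11.9% held CATTCC, 1.16% held a CArG box, 6.57% held TGANTCA, 3.14% held TGATGNAA, 1.45% held GGANTTTCC and 42.6% held GGGCGG. Of the 33 member windows, 3 held TGACNNNGC (ITGA1, ITGB1 and ITGB5), 4 held CATTCC (ITGA10, ITGA5, ITGB1 and LAMA2), 2 held TGANTCA (LAMA3 and LAMB3), 1 held TGATGNAA (ITGB5), 1 held a CArG box (ITGB6), 17 held GGGCGG and 0 held GGANTTTCC. A match of letters is a description of the sequence and does not show that a factor binds there.

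ITGB1 encodes the β1 subunit, which pairs with many α subunits and was the most abundant integrin transcript in these cells. Its level was 1859.9, 1827 and 2034 CPM in the control libraries and 4605, 4603 and 4519 CPM in the ILL libraries. All 3 ILL libraries stood far above all 3 controls and lay close together. ITGB1 rose 2.40-fold (log2 fold change 1.26, SE 0.047, adjusted p = 1.1e-17). Per length, its level went from 486 ± 26.3 to 1111 ± 13.9 FPKM (SD, n = 3), and its rank among all 19470 genes by mean FPKM went from 133 to 45. The gene lies on chromosome 10 (32900318 to 32958230, GRCh38.p14), and 0.699% of its exonic bases are shared with another annotated gene.

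ITGB4 encodes the β4 subunit, which pairs only with α6 and is the laminin receptor subunit of hemidesmosomes. Its level was 1116, 1199.7 and 1289 CPM in control and 1061, 1246 and 1068 CPM in ILL libraries, and the groups overlapped. The log2 fold change was -0.10 (95% interval -0.22 to 0.03, adjusted p = 0.155). The adjusted p was 0.045 without control replicate 1, 0.0040 without ILL replicate 2 and 0.013 with libraries scaled by their totals alone. With limma on log2(FPKM + 1) and log2(FPKM + 0.1), at a mean FPKM of at least 1, it was 0.040 and 0.041. ITGB4 was the next integrin β transcript after ITGB1 by FPKM in both groups, at 179 ± 12.1 in control and 160.0 ± 14.1 in ILL libraries (SD, n = 3).

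ITGB6, ITGB5, ITGB8 and ITGB3 encode β subunits that pair with αV, and the αVβ6 and αVβ8 receptors release active TGF-β from its latent complex. ITGB6 was at 82.7, 78.2 and 98.0 CPM in control and 183, 175 and 177 CPM in ILL libraries, with no overlap. It rose 2.07-fold (log2 fold change 1.05, SE 0.066, adjusted p = 4.7e-13), just past the fold cutoff, and its log2 fold change was 0.98 without control replicate 2, 0.98 with libraries scaled by their totals alone and 0.95 with limma on log2(FPKM + 1). In the annotation, 20.6% of the exonic bases of ITGB6 are shared with a gene on the same strand (AC092153.1). ITGB8 was at 31.7, 29.7 and 28.3 CPM in control and 43.9, 42.9 and 40.0 CPM in ILL libraries, and rose 1.41-fold (adjusted p = 1.3e-06). ITGB5, at 36.1 to 42.1 CPM in control and 44.5 to 45.3 CPM in ILL libraries, rose 1.18-fold (adjusted p = 0.0053), with adjusted p-values from 0.00084 to 0.072 over its alternatives.

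ITGB3 encodes β3, the partner of αV in the vitronectin receptor and of αIIb on platelets. It had 11, 4 and 5 counts in the control libraries and 104, 51 and 72 counts in the ILL libraries. The lowest ILL library was well above the highest control, yet the level with ILL remained low, at 0.357 ± 0.126 FPKM (SD, n = 3). ITGB3 entered the test through the ILL libraries, since 3 of these and 1 control library reached the filter's cutoff of 0.281 CPM, and it was not tested at 10 or more counts in every library. The log2 fold change was 3.55 (SE 0.49, 11.7-fold, adjusted p = 4.5e-07), and it was 0.39 on the scale of log2(FPKM + 1), which understates the change of so low a gene and did not pass the fold cutoff. Its exonic bases are shared to 51.6% with an annotated gene on the same strand (AC068234.1), so its counts may hold reads of that gene, whose part was not tested. ITGA2B, which encodes αIIb, had 0, 6 and 0 counts in control and 7, 0 and 5 in ILL libraries and was not tested. Of 3 platelet markers, PF4 and GP1BA were at 0 in every library, and the summed level of the list was 0.797 to 1.44 CPM in control and 0 to 0.843 CPM in ILL libraries. The remaining marker, PPBP, made up this sum. PPBP was a DEG lower with ILL (log2 fold change -1.91), though its groups overlapped.

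ITGB7 and ITGB2 encode the β subunits known mainly from leukocytes. ITGB7 was at 4.51, 4.78 and 5.005 CPM in control and 16.9, 17.3 and 15.2 CPM in ILL libraries, and rose 3.46-fold (log2 fold change 1.79, SE 0.12, adjusted p = 2.8e-12). Its exonic bases are shared to 42.1% with ZNF740 on the opposite strand. ZNF740 had 748, 686 and 650 counts in control and 885, 859 and 745 in ILL libraries (log2 fold change 0.32, adjusted p = 0.0027), and since no source used here says that counting used strand, reads of the 2 genes cannot be told apart. ITGB2 went the other way, from 23.0, 24.4 and 24.1 CPM in control to 16.9, 19.6 and 14.1 CPM in ILL libraries, which is a log2 fold change of -0.50 (SE 0.10, adjusted p = 0.00013).

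The α partners of β2 and β7 were low. ITGAE, which encodes αE, the partner of β7 in a receptor for E-cadherin, was at 12.3, 10.3 and 9.05 CPM in control and 4.48, 4.71 and 5.40 CPM in ILL libraries. It fell with a log2 fold change of -1.12 (SE 0.15, adjusted p = 3.8e-07), just past the cutoff, and the value was -0.995 without control replicate 1 and -0.65 with limma on log2(FPKM + 1), where it was no DEG. HASPIN, a mitotic kinase gene that lies within ITGAE, shares exonic bases with it. In all, 7.59% of the exonic bases of ITGAE are shared with other genes. HASPIN had 614, 594 and 521 counts in control and 32, 72 and 57 in ILL libraries (log2 fold change -3.35, adjusted p = 4.6e-14), and its part in the fall of ITGAE was not tested. ITGAX had 2, 0 and 2 counts in control and 10, 10 and 8 in ILL libraries, and ITGAM had 1, 1 and 1 counts in control and 16, 6 and 2 in ILL libraries. ITGAL had 0, 0 and 0 counts in control and 2, 0 and 4 in ILL libraries, and ITGAD had none in any library. None of these 4 was tested. Leukocyte markers (PTPRC, CD3E, CD79A, CD14, CSF1R and SPI1; 6 genes) summed to 0.711 to 1.10 CPM in control and 1.80 to 2.46 CPM in ILL libraries. PTPRC, which encodes the pan-leukocyte CD45, had 0, 0 and 1 counts in control and 9, 0 and 1 in ILL libraries, and 3 of the 6 genes had at most 10 counts in every library. CD79A, for a B cell receptor chain, had 20, 10 and 7 counts in control and 48, 67 and 36 in ILL libraries, and was a DEG (log2 fold change 2.10, adjusted p = 0.00042). Their part in the values of ITGB7 and ITGB2 was not tested.

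ITGA3 and ITGA6 encode the laminin-binding subunits α3 and α6 and were the leading α transcripts in both groups. ITGA3 was at 770.1, 842 and 908 CPM in control and 1198, 1331 and 1125 CPM in ILL libraries. It rose 1.45-fold (log2 fold change 0.54, SE 0.060, adjusted p = 2.0e-08). ITGA6 was at 764, 735 and 788 CPM in control and 1034, 1049 and 1011 CPM in ILL libraries, and rose 1.35-fold (log2 fold change 0.44, SE 0.047, adjusted p = 8.7e-09). Neither gene had overlapping groups, and neither reached the fold cutoff. ITGA7, for α7, the laminin receptor subunit of muscle, was at 0.226 to 0.398 CPM in control and 0.229 to 0.436 CPM in ILL libraries, with a log2 fold change of 0.27 (95% interval -0.98 to 1.52).

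Among the collagen receptors, ITGA2 stood apart. It encodes α2, and its level was 165, 155 and 177 CPM in control and 450.2, 420.3 and 435 CPM in ILL libraries. Every ILL library was above every control, and ITGA2 rose 2.63-fold (log2 fold change 1.39, SE 0.055, adjusted p = 3.4e-17). It was a DEG under each of its 15 alternatives, with log2 fold changes from 1.29 to 1.44. ITGA1, the neighbouring gene on chromosome 5 that encodes the collagen receptor subunit α1, was at 3.40, 3.27 and 2.54 CPM in control and 3.37, 2.73 and 2.40 CPM in ILL libraries (log2 fold change -0.12, 95% interval -0.62 to 0.39). ITGA10 was at 1.62 to 2.23 CPM in control and 1.14 to 2.73 CPM in ILL libraries (log2 fold change -0.07, 95% interval -0.77 to 0.64), and ITGA11 had 1 count in 1 ILL library and none elsewhere.

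ITGAV and ITGA5 encode subunits that recognise the RGD sequence of fibronectin and vitronectin. ITGAV was at 86.9, 93.9 and 86.7 CPM in control and 173, 147 and 150.4 CPM in ILL libraries, and rose 1.76-fold (log2 fold change 0.82, SE 0.063, adjusted p = 2.0e-11). ITGA5 was at 18.3, 14.3 and 19.6 CPM in control and 30.6, 33.8 and 32.9 CPM in ILL libraries, and rose 1.86-fold (log2 fold change 0.90, SE 0.098, adjusted p = 1.1e-08). The groups of both genes stood apart, and both stayed under the fold cutoff. ITGA8 was at 0 in every library. ITGA4 had 0, 0 and 0 counts in control and 1, 1 and 0 in ILL libraries, and ITGA9 had 0, 0 and 0 in control and 0, 4 and 4 in ILL libraries.

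By FPKM the order of the integrin α transcripts in control libraries was ITGA3 (174 ± 13.5), ITGA6 (129.6 ± 4.14), ITGA2 (21.6 ± 1.35), ITGAV (12.7 ± 0.592), ITGA5 (4.12 ± 0.647) and ITGAE (1.88 ± 0.302; SD, n = 3). The same 5 genes led in the same order with ILL, and no neighbouring pair overlapped. The order of the β transcripts in control libraries was ITGB1, ITGB4, ITGB6, ITGB5, ITGB2, ITGB8 and ITGB7, again with no overlap between neighbours. With ILL, ITGB7 (5.53 ± 0.378 FPKM) stood at the level of ITGB2 (5.24 ± 0.830 FPKM), and these libraries overlapped.

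Summed over the genes of a class, FPKM of the integrin β transcripts went from 705 ± 39.2 in control to 1334 ± 21.0 in ILL libraries (1.89-fold), while that of the α transcripts went from 345 ± 16.0 to 492 ± 21.1 (1.43-fold; SD, n = 3). The groups did not overlap in either sum (exact two-sided permutation p = 0.1, the smallest that 3 against 3 libraries can give, 0.12 after Benjamini-Hochberg adjustment over 6 comparisons). The ratio of ITGB1 to the sum of its α partners was 1.44, 1.38 and 1.43 in control and 2.28, 2.18 and 2.34 in ILL libraries.

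The make-up of the β class moved toward ITGB1. Its share of the summed FPKM went from 68.9% to 83.3%, and that of ITGB4 went from 25.4% to 11.99%, with the groups apart in each (exact two-sided permutation p = 0.1, 0.138 after adjustment over 18 shares). ITGB6 held 2.69% in control and 2.82% in ILL libraries, and these overlapped (exact permutation p = 0.3). Among the α transcripts, the share of ITGA2 went from 6.27% to 11.02% and that of ITGA6 from 37.6% to 33.96%, in each case without overlap (exact permutation p = 0.1). ITGA3 held 50.5% in control and 48.9% in ILL libraries, with overlapping groups (exact permutation p = 0.2). The shares of a class add to a fixed total, so a rise of 1 gene lowers the shares of the others. By CPM, ITGB4 itself had a log2 fold change of -0.10 (edgeR adjusted p = 0.155), and ITGA6 rose 1.35-fold.

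Because a ratio of 2 genes within a library does not depend on how libraries are scaled, 15 pairs of partner chains were compared as log2 ratios. ITGA3 to ITGB1 differed by -0.73 and ITGA6 to ITGB1 by -0.83 between ILL and control, both α subunits being lower relative to β1 in every ILL library. ITGA5 to ITGB1 differed by -0.35 and ITGAV to ITGB1 by -0.45. ITGA2 to ITGB1 went the other way by 0.13, the smallest of these differences. The ratio of ITGA6 to ITGB4 differed by 0.53, with FPKM ratios of 0.724 in control and 1.05 in ILL libraries. Among the αV receptors, ITGAV to ITGB5 differed by 0.58 and ITGAV to ITGB8 by 0.31, while ITGAV to ITGB6 differed by -0.24 with overlapping groups. All but ITGAV to ITGB6 among these 9 pairs had groups that did not overlap (exact two-sided permutation p = 0.1, 0.125 after adjustment over the 15 pairs, against p = 0.2 for ITGAV to ITGB6).

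LAMA3 and LAMB3 encode the α3 and β3 chains, which are found in the laminin under hemidesmosomes. LAMB3 was at 774, 824 and 980.4 CPM in control and 1280.0, 1382 and 1171 CPM in ILL libraries, and rose 1.49-fold (log2 fold change 0.57, SE 0.068, adjusted p = 4.8e-08). Control replicate 3 was the highest control, and it still lay below every ILL library. LAMA3 was at 996, 996 and 1125 CPM in control and 1092, 1184 and 1108 CPM in ILL libraries, so its groups overlapped. Its log2 fold change was 0.12 (SE 0.053, adjusted p = 0.047). Its adjusted p lay between 0.0036 and 0.49 in the alternatives and was 0.23 without control replicate 1, 0.24 without control replicate 2, 0.16 without ILL replicate 2 and 0.052 without ILL replicate 3. The log2 ratio of LAMA3 to LAMB3 differed by -0.46, without overlap (exact permutation p = 0.1, 0.125 adjusted over 15 pairs).

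The other chains make up laminins such as laminin-511 and laminin-521. LAMB2, which encodes β2, was at 51.5, 58.1 and 58.8 CPM in control and 109.6, 127 and 104 CPM in ILL libraries. It rose 2.02-fold (log2 fold change 1.02, SE 0.071, adjusted p = 3.3e-12). It lay at the fold cutoff and was under it without control replicate 1 (0.95), without ILL replicate 2 (0.93), with libraries scaled by their totals alone (0.95) and with limma on log2(FPKM + 1) (0.88). LAMB1, which encodes β1, was at 235, 233 and 262 CPM in control and 128, 142 and 133 CPM in ILL libraries, and fell to 0.552 of its control level (log2 fold change -0.86, SE 0.058, adjusted p = 1.5e-12). Relative to LAMC1, the γ1 chain, LAMB1 differed by -0.96 and LAMB2 by 0.91 on the log2 scale, and the groups stood apart in both (exact permutation p = 0.1, 0.125 adjusted). The FPKM ratio of LAMB1 to LAMC1 went from 1.002 to 0.516, and that of LAMB2 to LAMC1 from 0.263 to 0.496. LAMB1, at 38.3 ± 2.38 FPKM, exceeded LAMB2, at 10.1 ± 0.692 FPKM, in control libraries. With ILL they stood at 20.2 ± 0.978 and 19.4 ± 1.93 FPKM (SD, n = 3) and overlapped.

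LAMA5 and LAMC1, for the α5 and γ1 chains, did not pass the test. LAMA5 was at 549, 586 and 571 CPM in control and 544, 623 and 526 CPM in ILL libraries (log2 fold change -0.01, 95% interval -0.13 to 0.11). LAMC1 was at 291, 281 and 315 CPM in control and 316, 335 and 300.1 CPM in ILL libraries (log2 fold change 0.10, 95% interval -0.01 to 0.21), and its adjusted p of 0.106 became 0.027 without control replicate 3 and 0.043 without ILL replicate 3. The log2 ratio of LAMA5 to LAMC1 differed by -0.11 with overlapping groups (exact permutation p = 0.2). LAMA4, for the α4 chain of vessels and mesenchyme, was at 22.8, 27.0 and 24.9 CPM in control and 19.0, 23.0 and 21.7 CPM in ILL libraries, which overlapped (log2 fold change -0.23, adjusted p = 0.029, range over its alternatives 0.0055 to 0.16, with 0.14 without control replicate 2, 0.056 without control replicate 3 and 0.16 without ILL replicate 1). LAMA2, at 0.824 to 1.57 CPM in control and 1.14 to 1.98 CPM in ILL libraries, had a log2 fold change of 0.39 (95% interval -0.38 to 1.16).

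LAMB4 had 12, 17 and 21 counts in the control libraries and 0, 0 and 0 in the ILL libraries. With a floor of 3 counts per ILL library it was at least 5.36-fold lower. It passed the filter on low counts only through the control libraries, so a gene with its counts had to differ, and its call as a DEG is no support for a fall among the members. It is the neighbour of LAMB1 on chromosome 7 (108011662 to 108130361 and 107923799 to 108003161), and a little-studied β chain. LAMC3 had 12, 1 and 13 counts in control and 14, 29 and 0 in ILL libraries, and its log2 fold change of 0.80 had a 95% interval from -0.93 to 2.52. LAMA1 had 2, 12 and 9 counts in control and 14, 5 and 5 in ILL libraries and was not tested.

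The summed FPKM of all laminin chains went from 621 ± 58.5 to 752 ± 39.9 (1.21-fold; SD, n = 3, exact permutation p = 0.1 and 0.12 adjusted). For LAMA5, LAMB1, LAMB2 and LAMC1 together the sum was 137 ± 4.83 in control and 126 ± 8.81 in ILL libraries, with overlap (exact permutation p = 0.3). Within the β chains LAMB3 went from 80.1% to 87.5%, LAMB1 from 15.7% to 6.37% and LAMB2 from 4.14% to 6.10% of the summed FPKM, without overlap in each (exact permutation p = 0.1).

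The genes that work with integrins and laminins were counted in 5 lists. Of the 5 hemidesmosome partners, 4 were higher at an adjusted p under 0.05 and 1 was lower, with a median log2 fold change of 0.45 and no DEG. These are 80% and 20% of 5 genes, where 36.2% and 36.9% of all tested genes passed as higher and lower. COL17A1, the hemidesmosomal collagen, had a log2 fold change of 0.54, DST of 0.47, ERBIN of 0.45 and the tetraspanin gene CD151 of 0.24, while PLEC, for the linker plectin, had -0.16 (adjusted p = 0.045). Of 5 laminin receptors other than integrins, 3 were higher and 1 was lower, with no DEG and a median of 0.78, which is 60% and 20% of 5 genes against the same 36.2% and 36.9%. The syndecan genes SDC1 (0.90) and SDC4 (0.78) and the Lutheran antigen gene BCAM (0.86) rose, SDC2 (-0.73) fell, and DAG1, for dystroglycan, had 0.04 (adjusted p = 0.59).

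Of 49 tested genes for cytoplasmic adhesion proteins (51 listed), 8 DEGs rose and 2 fell, which is 16.3% and 4.08% against 12.5% and 11.4% of all tested genes. At an adjusted p under 0.05 there were 29 higher (59.2%) and 11 lower (22.4%), against 36.2% and 36.9%, with a median of 0.28. NEDD9, a docking protein of the p130Cas family, was at 2.86, 4.16 and 5.15 CPM in control and 27.2, 25.5 and 26.5 CPM in ILL libraries (log2 fold change 2.71, SE 0.14). LIMS2, for PINCH-2, a partner of integrin-linked kinase, had a log2 fold change of 2.57 (SE 0.086), and TGFB1I1, for the paxillin relative Hic-5, of 1.86 (SE 0.065). TNS1, for tensin-1, fell by 1.34 on the log2 scale (SE 0.11). The remaining DEGs of this list were ZYX, FERMT2, LPP, VCL and FLNA, all higher, and PARVG, lower. PARVG was low, with 58, 48 and 38 counts in control and 20, 10 and 33 in ILL libraries. Its log2 fold change was -1.12 (95% interval -2.05 to -0.19, adjusted p = 0.029). Without control replicate 1 or 2, or ILL replicate 1 or 2, TNS1 was the only DEG of the list that was lower. Talin-1 (TLN1) had 0.51 and integrin-linked kinase (ILK) had 0.95, both under the fold cutoff, and kindlin-1 (FERMT1) fell by 0.42 where kindlin-2 (FERMT2) rose by 1.35 on the log2 scale.

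Of 18 basement membrane partners, all tested, 3 were DEGs higher (16.7%) and 1 was a DEG lower (5.56%), against 12.5% and 11.4% of all tested genes. Without the fold cutoff 8 (44.4%) and 3 (16.7%) passed, against 36.2% and 36.9% (median 0.31). NTN4, for netrin-4, which binds laminin γ chains, was at 56.1, 56.5 and 58.5 CPM in control and 209, 202 and 190.5 CPM in ILL libraries (log2 fold change 1.81, SE 0.057). COL4A3 had 34, 35 and 47 counts in control and 75, 86 and 71 in ILL libraries (log2 fold change 1.06, SE 0.33, adjusted p = 0.0065), which was 0.93 without control replicate 1 and 0.97 without ILL replicate 2. NID1, for nidogen-1, the link between laminin γ1 and collagen IV, had 0.09 (adjusted p = 0.20), and NID2 had 0.59. SMOC1 was the other DEG that was higher, with 1 count in each control library and 18, 25 and 35 counts in the ILL libraries, through which alone it passed the filter, and COL4A1 (69, 42 and 43 counts in control, 7, 12 and 14 in ILL libraries) was the DEG that was lower.

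Of 19 tested ligands of integrins other than laminins (29 listed), 6 were DEGs higher (31.6%) and 1 was a DEG lower (5.26%). Among all tested genes these shares were 12.5% and 11.4%. Without the fold cutoff 9 (47.4%) and 3 (15.8%) passed, against 36.2% and 36.9% (median 0.26). CDH1, for E-cadherin, the ligand of αEβ7, was at 239, 245 and 257 CPM in control and 997, 1104 and 1006 CPM in ILL libraries (log2 fold change 2.07, SE 0.053). TNC, for tenascin-C, rose by 1.80 (SE 0.072) and LTBP1, for a latent TGF-β binding protein, by 1.59 (SE 0.13) on the log2 scale. THBS1, for thrombospondin-1, went from 656, 648 and 659 CPM to 86.7, 101 and 89.96 CPM (log2 fold change -2.82, SE 0.058, adjusted p = 2.1e-22). FN1, for fibronectin, had a log2 fold change of 0.14 (adjusted p = 0.030). The other DEGs were ICAM1, MFGE8 and VWF, all higher. VWF had 2, 13 and 0 counts in control and 25, 23 and 13 in ILL libraries. It entered the test through the ILL libraries, since 3 of these and 1 control library reached the filter's cutoff. With at least 10 counts required in every library, 5 ligands were called higher.

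Markers of cells other than biliary epithelium were low beside the biliary sum. The fibroblast and hepatocyte sums still reached the level of a low member such as ITGB7. Fibroblast markers summed to 12.1 to 14.2 CPM in control and 16.8 to 18.4 CPM in ILL libraries, with 4 of 7 genes at 10 or fewer counts in every library. Endothelial markers summed to 1.03 to 1.65 and 1.74 to 1.91 CPM, with 1 of 4 genes at 10 or fewer counts. Hepatocyte markers summed to 6.83 to 8.45 and 7.65 to 19.8 CPM, with 1 of 3. COL1A1 (log2 fold change 0.55), VWF (2.05) and 1 of 2 tested hepatocyte markers passed the test as higher. LUM (0.16), CDH5 (0.29) and PECAM1 (-0.89) did not pass. Their part in the values of the members was not tested.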

How the data were processed

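Total RNA of 6 HCCC9810 libraries (3 control, 3 ILL) was made into mRNA-seq libraries with Illumina kits. Per the labels, the submitters' processing notes name GRCh38 and DESeq2. The aligner, the counter, the annotation and whether counting used strand are not given in the sources used here. Raw counts and FPKM values of each gene were deposited. Each FPKM value is the count over the library total and over a length that is a whole number of bases. Counts ranged from 34282764 to 37758569 per library, and for low genes the counting error limits precision.

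Counts were tested with edgeR 4.0.16 (R 4.3.3): filterByExpr, TMM, quasi-likelihood test, Benjamini-Hochberg adjustment over 13066 of 19470 genes, with the study's cutoffs of adjusted p (0.05) and fold change (2, or 0.5 for genes that fell). An SE is the size of the log2 fold change, before edgeR's shrinkage toward no change, divided by the square root of the F statistic. The log2 fold changes given, on which the intervals are centred, are those after shrinkage. The script was tested on simulated data, with changes well past the fold cutoff in genes that were not low. That test does not cover calls near the cutoff or at low counts. Ratios and shares of FPKM (genes with at least 10 counts in every library for ratios) were compared by exact permutation tests over libraries. DESeq2 1.42.0, limma 3.58.1 on log2(FPKM + 1) and log2(FPKM + 0.1), other scalings and filters, leaving out each library and a replicate block were alternatives. Replicate numbers did not pair the libraries (correlations of deviations between -0.022 and 0.011 for equal numbers). Gene positions and upstream windows are RefSeq's (GRCh38.p14), and exons are from GENCODE 29. Every member is named except 1 that is not reported here. In each list, the up to 3 DEGs in each direction that changed most are named, if their groups do not overlap and their mean level is 1 CPM or more. Other genes were named after their values were seen. The members and lists were chosen with earlier results of these data known.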

Additional observations from a re-analysis of the deposited data

How the results depend on the processing

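Of the 28 tested members, 20 kept direction and call under the alternatives that could test them, of which there were 12 to 15 per gene and which all kept the fold cutoff, and 8 changed, 3 of them in sign. Among the DEGs, ITGA2, ITGB1 and ITGB7 kept the call in every alternative, and ITGAE, ITGB3, ITGB6, LAMB2 and LAMB4 lost it in at least 1. The other members that kept their call were not DEGs in the main test. Of the 10 named partner genes, 7 kept both under the same alternatives. A call here is that of a DEG, so a gene under the fold cutoff could keep it while its adjusted p crossed 0.05. The adjusted p-values of ITGB4, ITGB5, LAMA3, LAMA4 and LAMC1 lay on both sides of 0.05 over their alternatives. The replicate block gave 6 members higher and 2 lower, and 3111 DEGs among all genes against 3120 without it, and it changed the call of no member, though the adjusted p of LAMA3 became 0.053. No ratio or share changed sign, but for most of them this was fixed in advance. A ratio in FPKM differs between groups exactly as one in counts. Where the groups do not overlap, leaving out 1 library cannot change the sign. Members called higher numbered 4 with libraries scaled by their totals alone, and 8 without a filter and with DESeq2's Wald test. Limma on FPKM with a pseudocount of 1, with or without a filter, called 3 members higher and 0 lower, and 1591 (filtered) or 1609 DEGs in all, and with a pseudocount of 0.1 it called 3 and 1. In these 3 settings the cytoplasmic adhesion list had 0 lower, and the basement membrane list had 1 higher and 0 lower. At 10 or more counts in every library, which removes LAMB4 and COL4A1 from the test, 1 member and 0 basement membrane genes were lower. The other ligands had 2 lower with no filter and with DESeq2's Wald test. Without a fold cutoff there were 9547 calls in all, with 15 members higher and 5 lower. The lists had 29 higher and 11 lower (cytoplasmic), 8 and 3 (basement membrane) and 9 and 3 (other ligands). They had 4 and 1 (hemidesmosome) and 3 and 1 (laminin receptors). Leaving out 1 library at a time gave 5 to 7 members higher and 1 to 2 lower (1 without control replicate 1), 1 to 2 cytoplasmic genes lower (1 without control replicates 1 or 2 or ILL replicates 1 or 2), and 1 to 2 basement membrane genes and ligands lower (2 without ILL replicate 1). Of the log2 fold changes that did not pass the test, 3 changed sign. LAMA5 was 7.1e-05 with DESeq2 size factors, 0.0017 at 10 or more counts and -0.088 to 0.039 without 1 library. ITGA10 ranged from -0.47 to 0.18 and LAMC3 from -0.24 to 1.38 without 1 library. Where no construction of the setting explains a change, the cause was not tested.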

Other observations

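The genes ITGBL1, ITGB3BP and ITGB1BP1 have integrin names but encode no integrin subunit; they were chosen after their values were seen. ITGBL1, for a secreted protein that resembles the β subunit's stalk, had 3563, 3423 and 3332 counts in control and 1239, 1185 and 1278 in ILL libraries (log2 fold change -1.41, SE 0.062, adjusted p = 2.9e-16). ITGB3BP, for the centromere protein CENP-R, had 753, 672 and 517 counts in control and 120, 112 and 133 in ILL libraries (log2 fold change -2.34, SE 0.14, adjusted p = 1.7e-13), while ITGB3 itself was higher with ILL. ITGB1BP1, for the β1-binding protein ICAP1, had a log2 fold change of -0.51 (SE 0.057, adjusted p = 2.0e-08), while ITGB1 was higher.

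ITGA2 and ITGA1 are neighbouring genes, a pair given here after their values were seen. ITGA2 had a log2 fold change of 1.39 and ITGA1 had -0.12. Of the exonic bases of ITGA1, 6.39% are shared with other genes, among them PELO on the same strand. PELO had 860, 706 and 867 counts in control and 881, 826 and 911 in ILL libraries (log2 fold change 0.17, edgeR adjusted p = 0.083). Its part in the value of ITGA1 was not tested.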
